A study of Gasterosteus aculeatus with 12 samples.

Results

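The first 3 Mb of chromosome XIX of the threespine stickleback, labelled as its pseudoautosomal end, were described from allele counts in RNA of 12 whole F1 embryos. A member was a single-nucleotide variant (SNV) on chromosome XIX at a position below 3000000 that was listed in all 12 embryos with more than 12 reads, reference plus alternate, in each. There were 1007 such SNVs, of 116469 in the whole genome under the same filter, and of 5217 sites that were listed below 3 Mb in at least 1 embryo. The study crossed LITC fish, from an anadromous population, with a high-spine line selected for many dorsal spines, to read cis-regulatory differences between the parental alleles from the 2 alleles within each F1 fish. Embryos came from in vitro fertilization, were kept in 10% seawater at 16 °C, and were frozen at 72 h after fertilization, at stage 19/20, without any treatment. All 12 carried the same label, so the files hold no treated or control group. The labels give neither the sex nor the parents of an embryo, the side of the cross that gave the mother is not stated for the embryos, parental genotypes were not used, and sibs of 1 cross share parental haplotypes, so that p-values cover the spread between these embryos alone. Embryos are called here by their replicate numbers, 1 to 12.

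Chromosome XIX is the sex chromosome of this fish, with an XY system, and the reference sequence is that of an X. The X and the Y exchange segments in meiosis only in the pseudoautosomal region at one chromosome end, and elsewhere the Y is passed from father to son without exchange and has diverged from the X. A male therefore carries both X and Y bases at diverged sites, while a female carries 2 copies of the X. Reads from a diverged Y copy can also map less well to an X reference.

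On gasAcu1-4, the assembly used by the authors, the first member was at position 11099 of chromosome XIX and the last at 2934958, and the next SNV that passed the filter was at 3016896. Members lay in 28 clusters separated by gaps of more than 20 kb, and 19 clusters with at least 10 SNVs held 967 of them. The longest stretch without a member was 281 kb, between 93465 and 374589. Of the members, 60.1% were within 150 bp, 1 read length, of the one before, so that neighbours often share reads. Transitions made up 57.4% of the members, against 58.8% of the SNVs on other chromosomes. Gene names and exon positions on this assembly were not used here, so SNVs are given by position. A name such as C1072915T gives the reference base, the position on chromosome XIX and the alternate base.

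The embryos had between 16302333 and 27003127 counted reads at 440710 to 489185 sites. The median depth of a member was 49 to 85 reads per embryo, and members took 0.415 to 0.517% of the counted reads of an embryo. Reads of low mapping quality were 5.75% of the raw depth at members, against 5.33% on other chromosomes and 2.07% at 3 to 12 Mb of chromosome XIX. No pair of embryos had the same counts at more than 1.79% of the members.

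An SNV was called heterozygous in an embryo when its minor allele took more than 10% of the reads. At 3 to 12 Mb, the stretch of chromosome XIX that follows, this measure put the embryos in 2 sets with nothing between them. Embryos 2, 4, 5, 6, 7 and 11 were heterozygous at 79.3 to 80.5% of 5424 SNVs, and embryos 1, 3, 8, 9, 10 and 12 at 12.1 to 12.5%. These sets come from the data and are not groups of the study, so values are given per embryo or as ranges without a test between them. In what follows they are called the first 6 (embryos 2, 4, 5, 6, 7 and 11) and the other 6 (embryos 1, 3, 8, 9, 10 and 12).

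Below 3 Mb the embryos were far more alike. The heterozygous share of the 1007 members was 55.6% in embryo 2, 55.9% in embryo 4, 56.4% in embryo 5, 58.5% in embryo 6, 56.9% in embryo 7 and 57.1% in embryo 11. It was 53.8% in embryo 1, 53.1% in embryo 3, 52.2% in embryo 8, 52.5% in embryo 9, 53.1% in embryo 10 and 53.7% in embryo 12. The ranges of the first 6 and the other 6 did not overlap, but lay 1.79 percentage points apart at their nearest, against 66.8 points at 3 to 12 Mb. From 12 Mb to the far end of the chromosome the first 6 were heterozygous at 56.8 to 58.6% of 3766 SNVs and the other 6 at 18.1 to 18.8%.

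**Figure D1:**
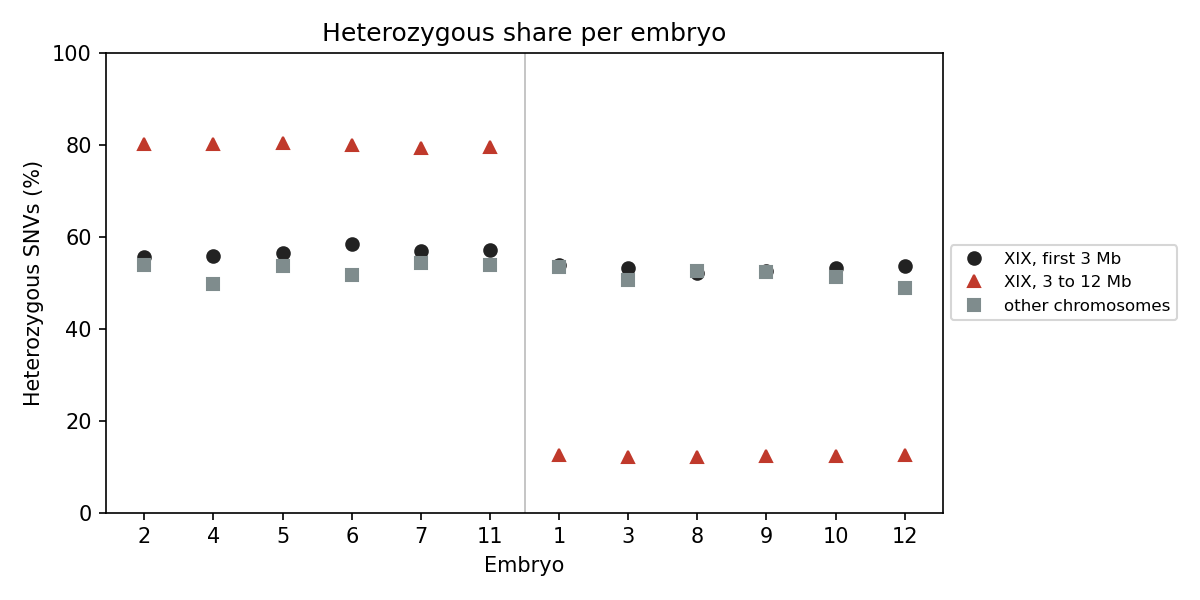
Share of SNVs that were heterozygous (y axis, %) in each embryo (x axis, the first 6 left of the line and the other 6 right of it) for members below 3 Mb of chromosome XIX (circles), SNVs at 3 to 12 Mb (triangles) and SNVs on other chromosomes (squares). Circles lie between 52.2 and 58.5% in every embryo, near the squares, while triangles lie at 79.3 to 80.5% in the first 6 and at 12.1 to 12.5% in the other 6.

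The heterozygous share below 3 Mb averaged 54.9% ± 2.07, against 52.2% ± 1.77 on the chromosomes other than XIX (SD, n = 12 embryos each). The paired difference was 2.73 ± 2.24 percentage points (SD), was positive in 11 of 12 embryos, and passed a two-sided exact sign-flip permutation test over embryos (p = 0.00146, adjusted over 3 such tests p = 0.00439). The sign of the difference depended on how linked SNVs were weighted: with 1 SNV per 1 kb, which left 235 members, it was -0.73 percentage points (p = 0.0776). With a heterozygosity limit of 20% it was 1.26 points (p = 0.0508). Over the 914 members below 2.6 Mb, a limit set after seeing the data, it was 3.91 ± 1.84 points and positive in 12 of 12 embryos (p = 0.000488, the smallest that the sign flips can give). Against 3 to 12 Mb, the interval was 21.5 to 24.5 points lower in each of the first 6 and 40.1 to 41.3 points higher in each of the other 6. The mean difference of 8.79 points did not pass the same test (adjusted p = 0.369). As the 2 sets went opposite ways, a test of the mean cannot show whether the stretches differ, while every embryo did differ between them.

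In windows of 0.25 Mb, the shares of the first 6 and the other 6 overlapped or met in all 11 windows from the chromosome's start to 2.75 Mb and separated in the last one. At 2.25 to 2.5 Mb they only met, at 46.0%, with 46.0 to 58.1% in the first 6 and 44.4 to 46.0% in the other 6. At 2.75 to 3 Mb, with 47 SNVs, embryos 2, 4, 5, 6, 7 and 11 were heterozygous at 66.0, 89.4, 70.2, 80.9, 66.0 and 85.1% of SNVs. Embryos 3 and 8 were heterozygous at 6.38% each and embryos 1, 9, 10 and 12 at 2.13% each. At 2.5 to 2.75 Mb the first 6 ranged from 25.5 to 53.2% and the other 6 from 51.1 to 53.2%, so that some of the first 6 had the lowest shares there. In the windows at 3 to 3.5 Mb the first 6 had 80.4 to 87.7% and the other 6 had 4.58 to 8.21%. Narrower windows of 0.1 Mb set the start of the separation at 2.9 Mb and wider ones of 0.5 Mb set it at 2.5 Mb.

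**Figure D2:**
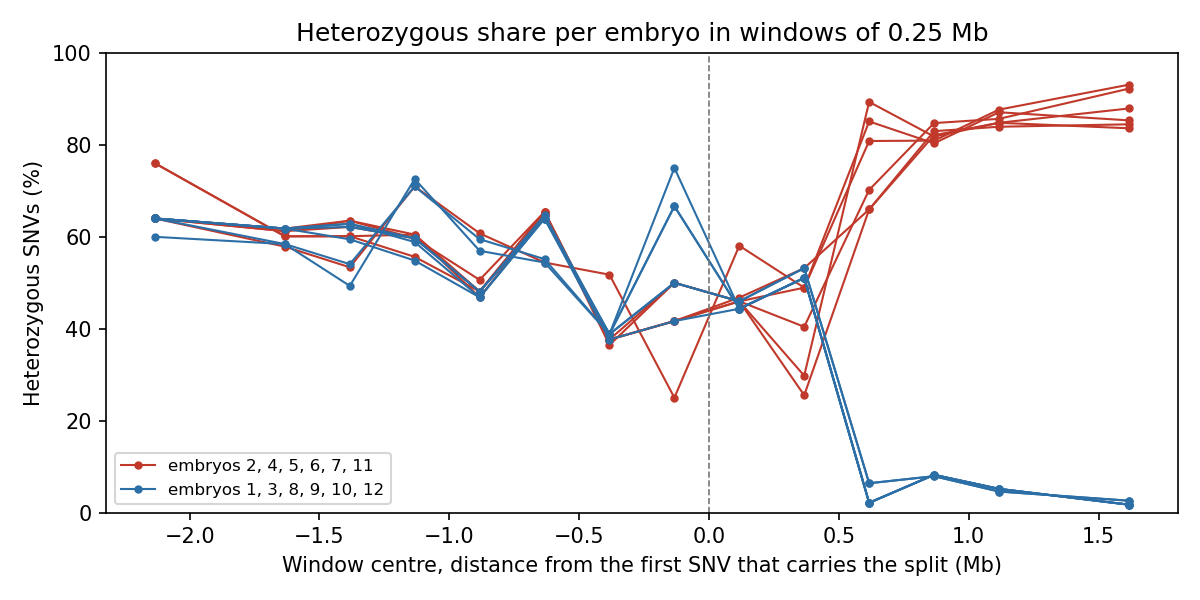
Heterozygous share (y axis, %) of each embryo, 1 line each, in windows of 0.25 Mb with at least 5 SNVs, plotted by the distance of the window's centre from the first SNV that carries the split described in the text (x axis, Mb, dashed line at 0). Lines of both sets run together over most of the first 3 Mb and part in its last window, where the first 6 have 66.0 to 89.4% and the other 6 have 2.13 to 6.38%.

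Genotypes of the members were next read across embryos, calling an embryo reference homozygous with an alternate share of at most 10% and alternate homozygous with at least 90%. All 12 embryos were heterozygous at 206 members (20.5%, against 18.8% on other chromosomes), all were reference homozygous at 92 and all alternate homozygous at 5. At 43 members all 3 genotypes occurred, and at 661 members 1 homozygote and the heterozygote occurred. Each of those 661 divides the embryos in 2, as would the haplotypes of 1 parent.

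A single division recurred along the interval up to 2.6 Mb, with 1 more SNV at 2.75 to 3 Mb. It set embryos 3, 6 and 8 apart from the other 9 embryos and was carried by 435 of the 1007 members, while 0.00289% of the SNVs on other chromosomes, 3 of 103773, had it. This division was picked as the most frequent one among these same members, so the contrast with unlinked chromosomes is no test. The first SNV with it was the first member, G11099A, where the alternate allele took 60.7% of 28 reads in embryo 3, 40.5% of 42 in embryo 6 and 37.5% of 32 in embryo 8, and between 0 and 6.67% in the other 9. The last was C2925397T, with 52.2, 74.5 and 45.3% alternate reads in embryos 3, 6 and 8 and none in the other 9. Below 2.6 Mb, 434 of 578 members with such a pair of genotypes carried this division. An SNV counts for it only when embryos 3, 6 and 8 are exactly 1 side, so its SNVs cannot show a change of side.

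The heterozygous side varied between the SNVs of this division. Embryos 3, 6 and 8 were the heterozygous ones at 224 of the 435, with the other 9 reference homozygous at 160 and alternate homozygous at 64. The other 9 were heterozygous at 211, with embryos 3, 6 and 8 reference homozygous at 151 and alternate homozygous at 60. The alternate base thus lay on the haplotype of embryos 3, 6 and 8 at 220 SNVs and on its counterpart at 215. These haplotypes were not compared with each other. Within heterozygous embryos, both alleles gave reads in nearly equal amounts. Pooled over the heterozygous SNVs of an embryo, the base that the homozygous embryos lacked took 47.7 to 49.3% of reads in the first 6 and 48.7 to 50.2% in the other 6. At 91 SNVs with the same division at 3 to 12 Mb, it took 51.9 to 57.0% in the first 6 and 46.7 to 49.3% in the other 6.

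All 43 members with 3 genotypes could be written as the division of embryos 3, 6 and 8 plus a second division. Most of them, together with members that had 1 homozygote and the heterozygote, gave a second track of 6 divisions below 2.6 Mb. Those at 1072873, 1329879, 1604237, 1672342, 1951659 and 2925063 lay outside it. The divisions of the track were taken as those with at least 2 members and, within their span, no member of another division that had 4 or more. Divisions with fewer members, such as that of embryo 6 alone at 707967, did fall within these spans. Embryos 3, 4, 6 and 11 stood against the rest at 30 members, 88506 to 746925. Embryo 9 joined them at 14 members, 845816 to 884973. Embryos 3, 4, 6 and 9 stood together at 4 members, 1062406 to 1068279, and embryos 3, 6 and 9 at 2, 1092639 and 1092774. The latter 2 both had 3 genotypes and lie within 1 read length of each other, so they are not independent. After a stretch without such members, embryos 2, 4, 5, 6, 7, 10 and 11 stood against 1, 3, 8, 9 and 12 at 48 members, 1851580 to 2050921. From 2256431 on the division was that of 3 to 12 Mb, embryos 2, 4, 5, 6, 7 and 11 against the other 6, at 56 members below 2.6 Mb, of which 9, that at 2256431 included, had 3 genotypes. Of the 661 members with 1 homozygote and the heterozygote, 74 matched neither track exactly, 27 of them below 2.6 Mb and 47 after it. At all of those 47, the embryos set apart were only some of embryos 2, 4, 5, 6, 7 and 11, and the other 6 shared 1 genotype. These 47 thus departed from the division of 3 to 12 Mb only in which of the first 6 were called like the other 6. Many alternate shares of the first 6 lay near a call limit there, as given below.

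Each step of this track changed the side of few embryos. With sides matched for the fewest changes, embryo 9 changed between 746925 and 845816, embryo 11 between 884973 and 1062406, and embryo 4 between 1068279 and 1092639. For embryo 4 the later position comes from the 2 neighbouring SNVs at 1092639 and 1092774. Embryos 1, 6, 8 and 12 changed between 1092774 and 1851580, a stretch of 759 kb in which the order of the changes could not be resolved. Embryo 10 changed last, between 2050921 and 2256431. Under this matching 8 embryos changed sides 1 time, embryos 2, 3, 5 and 7 did not change, and no embryo changed more often. These counts depend on the matching, as the other one would change 8 embryos in place of 4 between 1092774 and 1851580. The last member before the step of embryo 10 and the first after it show its change. At T2050921G, embryo 10 had 43.2% alternate reads, as embryos 2, 4, 5, 7 and 11 did with 43.8 to 51.2%, while embryos 1, 9 and 12 had none, embryo 6 had 100%, and embryos 3 and 8, set apart by the leading division, had 48.8 and 61.7%. At T2256431C embryo 10 had 44.6% alternate reads, as embryos 1, 9 and 12 did with 37.2 to 58.0%, while embryos 2, 4, 5, 7 and 11 had none, embryo 6 had 51.9%, and embryos 3 and 8 had 100%.

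**Figure D3:**
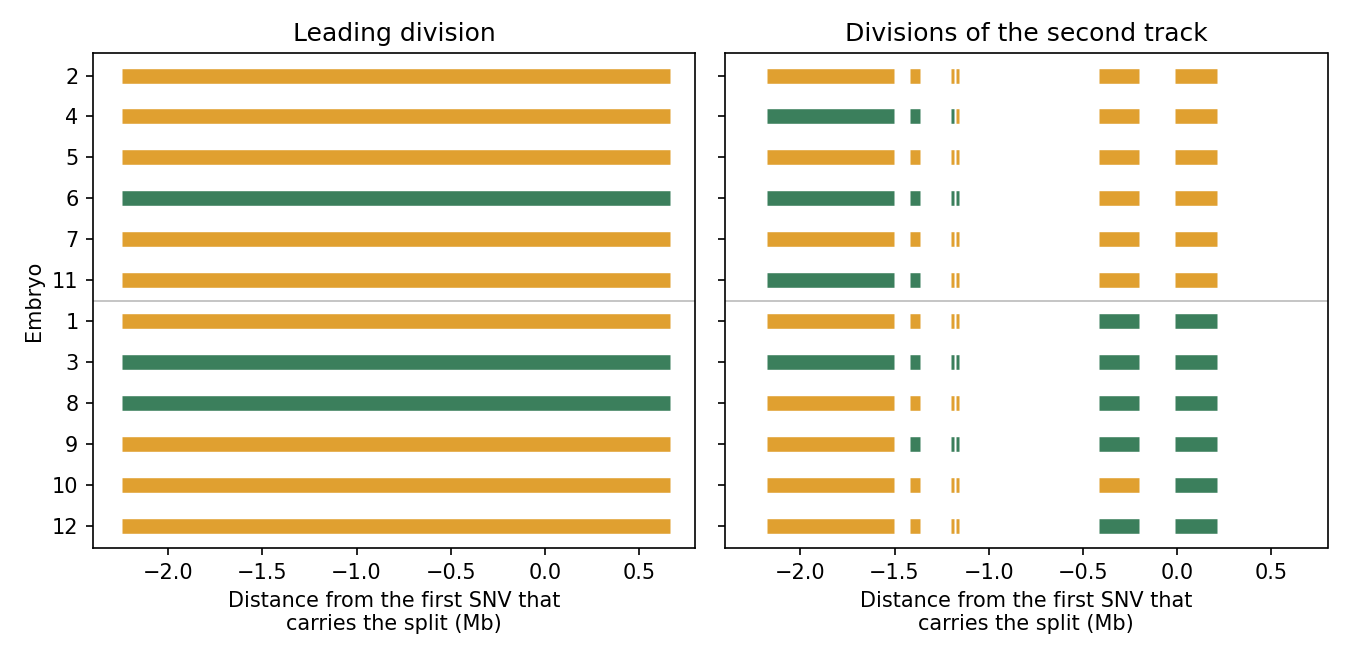
Side of each embryo (rows, the first 6 above the line) in the leading division (left) and in the 6 divisions of the second track (right), by distance from the first SNV that carries the split (x axis, Mb). Bars span the first to the last member of a division, the 2 colours mark its 2 sides and are not matched between panels, and blank stretches hold no member of the track. On the left embryos 3, 6 and 8 keep 1 colour throughout, as the division is defined by them. On the right, with sides matched for the fewest changes, 8 embryos change colour 1 time each and embryos 2, 3, 5 and 7 do not.

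A member was said to carry the split when its heterozygous embryos were exactly the first 6 or exactly the other 6. Below 2.25 Mb 0 of 789 members did, and as neighbours are linked these are not independent observations. At 2.25 to 2.5 Mb 47 of 124 did (37.9%), at 2.5 to 2.75 Mb 13 of 47 (27.7%) and at 2.75 to 3 Mb 22 of 47 (46.8%), against 0.115% of the SNVs on other chromosomes. The first was C2258320T, with 39.4 to 60.4% alternate reads in the first 6 and none in the other 6. The last was the last member, G2934958A, with 14.3 to 25.0% in the first 6 and none in the other 6.

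The SNVs at 2.25 to 2.5 Mb that carried the split differed from those after 2.6 Mb in which embryos were heterozygous and in their allele shares. At 2.25 to 2.5 Mb the first 6 were the heterozygous ones at 28 SNVs and the other 6 at 19. Pooled over these SNVs, the base absent from the homozygous embryos took 46.9 to 50.3% of reads in the first 6 and 50.05 to 53.5% in the other 6. The only member between 2.5 and 2.6 Mb, at 2571408, had the division of embryos 3, 6 and 8. The leading division was carried by 37 of the 124 members at 2.25 to 2.5 Mb, beside the 47 with the split.

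From 2657677 on, the pattern was another. In the cluster of 46 members from 2657677 to 2674837, the alternate shares of the first 6 and the other 6 did not overlap at 41 members, with the first 6 higher at 38, and such SNVs made up 0.287% on other chromosomes in that direction and 0.391% in either. At 23 of the 38 the other 6 were heterozygous, with embryo medians of 41.7 to 47.4% alternate reads, and the first 6 had medians of 91.7 to 97.5%. At the other 15 the first 6 had medians of 7.78 to 14.9% alternate reads, astride the 10% limit for a heterozygous call, and the other 6 had none at the median. The direction was opposite at 3 members, at 2657677, 2673825 and 2673894, and the 5 members with overlapping shares, at 2668393, 2669161, 2669176, 2674133 and 2674523, had at most 2.94% alternate reads in any embryo. Reads of low mapping quality were 42.0% of the raw depth in this cluster, with 39.7 to 46.6% in the first 6 and 37.4 to 45.2% in the other 6, and their part in these shares was not tested.

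In the last cluster, 47 members from 2924662 to 2934958, the alternate share was higher in all of the first 6 than in any of the other 6 at 40 members and lower at 1, at 2925324. At the 40, embryos 2, 4, 5, 6, 7 and 11 had median alternate shares of 20.7, 21.0, 14.2, 16.5, 15.2 and 16.7%, and embryos 1, 3, 8, 9, 10 and 12 had medians of 0. Low mapping quality was rare here, at 1.37% of the raw depth. Shares were thus far from the even split of reads seen before 2.5 Mb, and 21 of the 40 passed the 10% limit in all of the first 6. At 3 to 3.25 Mb, 285 of 341 SNVs had a higher alternate share in all of the first 6, and the first of them after the interval, A3016896G, had 25.0 to 41.0% alternate reads in the first 6 and 0 to 2.44% in the other 6.

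The stretch labelled as a pseudoautosomal end was thus not uniform in these values, and whether the label holds for all of it was not tested. Among the 914 members up to 2571408, SNVs of the leading division and of the second track lay side by side. Pooled over the SNVs of the leading division and of the split, both alleles of a heterozygous embryo were read about evenly there. Of the last 93 members, from 2657677 on, 82 had alternate shares that did not overlap between the sets of 3 to 12 Mb. At 2.25 to 2.5 Mb this held for 50 of 124 members, 33 with a higher and 17 with a lower alternate share in the first 6, and below 2.25 Mb for 1 of 789, at 1852076. Separate alternate shares thus began within the 914 members and became more frequent after 2.6 Mb. No member lies between 2571408 and 2657677, nor between 2674837 and 2924662, so that a finer position for the change cannot be given.

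Read depth was compared along the same stretches. Summed over the members, the first 6 had 5584 to 6147 reads per 1000000 reads at SNVs of other chromosomes (RPM), and the other 6 had 5288 to 6561 RPM. Embryo 1 alone, at 5288, made these ranges overlap, and the rest of the other 6 had 6261 to 6561. Below 2.25 Mb the first 6 had 4025 to 4402 and the other 6 had 3831 to 4445. At 2.25 to 2.5 Mb the first 6 had 1148 to 1270 and the other 6 had 1035 to 1318. Depth thus overlapped between the sets over 913 members.

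At 2.75 to 3 Mb it no longer did. Embryos 2, 4, 5, 6, 7 and 11 had 152, 173, 147, 170, 170 and 188 RPM, and embryos 1, 3, 8, 9, 10 and 12 had 258, 314, 298, 322, 276 and 282. The median of the first 6 was 0.587 of that of the other 6. Reference reads alone stood at 124 to 156 RPM in the first 6 and 251 to 315 in the other 6, a ratio of medians of 0.495, and alternate reads at 22.6 to 35.0 in the first 6 and 6.45 to 11.1 in the other 6. The cause of these depths was not tested, poorer mapping of a diverged copy included. In bulk RNA, fewer expressing cells and less RNA per cell also cannot be told apart.

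The members at 2.75 to 3 Mb form 1 cluster, the only one of 28 in which the ranges of the sets did not overlap, against 0.268% of clusters on other chromosomes with lower depth in all of the first 6. By single SNVs, depth was lower in all of the first 6 at 31 of the 47 members at 2.75 to 3 Mb, at 4 of 46 at 2.6 to 2.75 Mb (2674133, 2674267, 2674312 and 2674523), at 0 of 124 at 2.25 to 2.5 Mb and at 1 of 789 before (601573). The share was 0.118% on other chromosomes and 13.2% at 3 to 12 Mb. The reverse order was found at 6 members, all below 2.5 Mb, of which 3 lie between 2290058 and 2290070, and at 0.422% of SNVs on other chromosomes.

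The cluster from 2657677 to 2674837 varied most between embryos, with 155 to 286 RPM in the first 6 and 161 to 670 in the other 6. Embryo 1, the lowest of the other 6 at 161, made the ranges overlap, and its 5 companions had 443 to 670. The coefficient of variation over embryos was 53.7% in this cluster, against 29.7% in the last cluster and 4.57% in the cluster of 100 members from 510580 to 630163.

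**Figure D4:**
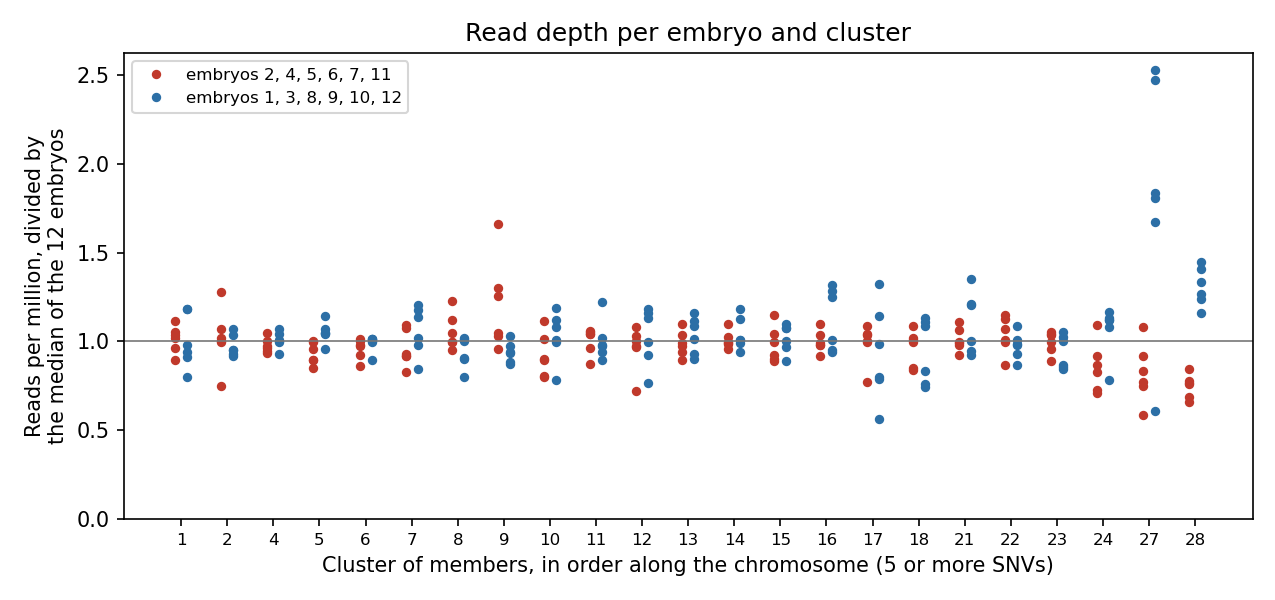
Reads of each embryo in a cluster of members, as RPM of the reads at SNVs of other chromosomes, divided by the median of the 12 embryos (y axis, 1 at the median), for clusters with at least 5 SNVs in order along the chromosome (x axis). Points of the first 6 stand left of those of the other 6. The sets overlap up to cluster 24, spread widely in cluster 27, where embryo 1 lies among the first 6, and are apart in cluster 28.

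At heterozygous members the reference allele took 52.1% ± 0.622 of the reads of an embryo, against 52.3% ± 0.162 on other chromosomes (SD, n = 12 embryos each). The difference of -0.24 ± 0.56 percentage points (SD) was negative in 9 of 12 embryos and did not pass the exact sign-flip permutation test (p = 0.158, adjusted over 3 tests p = 0.237). It was -0.57 to 0.79 points in the first 6 and -1.12 to -0.34 points in the other 6, and its mean turned to 0.25 points without SNVs of low mapping quality. Over the 914 members below 2.6 Mb, a limit set after seeing the data, the reference share was 51.2% ± 0.311. It lay below that of other chromosomes in 12 of 12 embryos, by -1.13 ± 0.29 points (exact permutation p = 0.000488, not adjusted). These shares pool reads over SNVs that the sibs have in common. As a mean over SNVs, the difference for the whole interval was 0.0917 points.

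Allelic imbalance, a departure from equal reads of both alleles, was tested at SNVs that were heterozygous in all 12 embryos, with edgeR's quasi-likelihood test over the genome and the embryo as a block. Of 206 members tested, 79 had a Benjamini-Hochberg adjusted p below 0.05, which is 38.3%, against 34.2% of all 20294 SNVs tested, so that the interval's share was close to the background. Under another filter, a pooled minor share above 5%, which also tests SNVs that were homozygous in some embryos, it was 36.8% of 878 members, against 22.6% of all SNVs tested, with a higher reference at 231 and a higher alternate allele at 92, and 28 of the 79 members were among these calls. With heterozygosity in all embryos required, the reference allele was higher at 44 of the 79 and the alternate at 35, while genome-wide 23.4% of tested SNVs were called with a higher reference and 10.7% with a higher alternate allele. With library sizes scaled per allele column, the split was 27 with a higher reference and 46 with a higher alternate allele. Without the embryo block 52 members were called in place of 79, which is 25.2%, against 21.0% of all SNVs tested. The median absolute log2 ratio was 0.24 in the interval and 0.20 over all SNVs tested. Called members lay in 18 of 22 clusters with a tested member, and the 3 tested after 2.6 Mb, at 2672659, 2673609 and 2673810, were not called. At 2673609 the reference allele was higher in 6 embryos and the alternate in 6. The test looks for 1 ratio common to all 12 embryos, so that it cannot show whether alleles were even where embryos go opposite ways.

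The same allele was higher in all 12 embryos at 24 of the 79, of which 14 had a higher reference and 10 a higher alternate allele. The share of such SNVs over the genome was not computed, so this count does not set the interval apart. The largest ratio was at C1072915T, where the reference took 71.7% of reads in the lowest embryo, 79.2% at the median and 88.5% in the highest, for a log2 ratio of reference to alternate of 1.88 ± 0.13 (SE, edgeR adjusted p = 1.2e-10). At T736935C the reference took 69.0, 76.1 and 85.1% in the lowest, median and highest embryo, with a log2 ratio of 1.77 ± 0.12 (edgeR adjusted p = 7.5e-11). At G1602976A it took 67.8, 74.5 and 86.0%, with a log2 ratio of 1.63 ± 0.10 (edgeR adjusted p = 3.7e-11). The reference took at least 67.8% of reads in every embryo at these 3 SNVs.

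The alternate allele was the higher one at others. The most negative log2 ratio, -1.70, was at 1069708 (edgeR adjusted p = 5.4e-10), which lies within 10 kb of C1072915T and is not among the 10 named SNVs. At T1106682C the reference took 10.9% in the lowest embryo, 22.8% at the median and 35.6% in the highest, with a log2 ratio of -1.61 ± 0.17 (edgeR adjusted p = 1.4e-07). At A1192738G it took 18.2, 26.8 and 39.1%, with a log2 ratio of -1.29 ± 0.14 (edgeR adjusted p = 3.0e-07). The rest of the 10 with the largest ratios, at most 1 per 10 kb, were T2275700C at 1.24, T703144C at 1.02, G1642870C at -0.997, G554345A at -0.71 and A1951580T at -0.54 on the log2 scale. Low mapping quality took 19.0% of the raw depth at T703144C and at most 2.93% at the other 9. At G554345A the adjusted p was 0.306 without the embryo block. Tested members within 150 bp of a named SNV did not all have ratios of its size. The log2 ratio was -0.088 at 737023, beside T736935C, and 0.027 at 1106825, beside T1106682C. It was -0.42 at 703105, beside T703144C, and -0.971 at 1642905, beside G1642870C. Phase between these neighbours was not determined, and the cause of the differences was not tested.

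**Figure D5:**
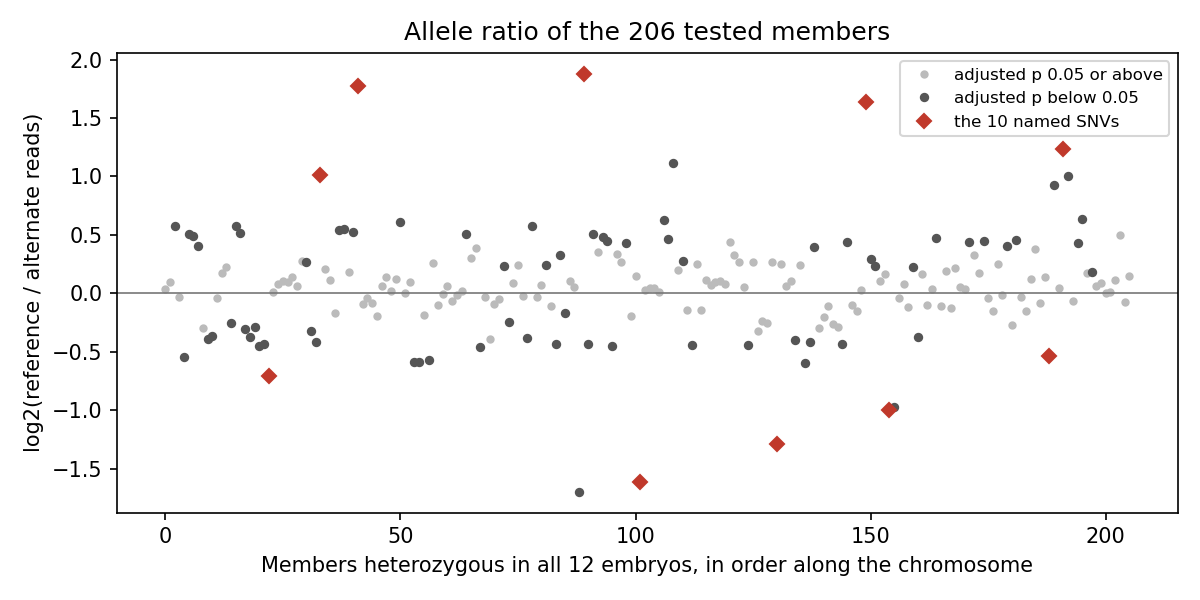
log2 ratio of reference to alternate reads (y axis) at the 206 members heterozygous in all 12 embryos, in order along the chromosome (x axis), from edgeR. Light points have an adjusted p of 0.05 or above, and dark points and diamonds one below it. Diamonds are the 10 SNVs named for the largest ratios, at most 1 per 10 kb, from -1.61 to 1.88. Called members with either allele higher are spread along the axis.

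The deepest members, at most 1 per 10 kb, show these patterns with the least counting error. T853522A, with 523 to 991 reads per embryo, and T883064C, with 219 to 616, followed the leading division, with 42.6 to 48.6% and 49.1 to 60.7% alternate reads in the 9 embryos that were heterozygous and none in embryos 3, 6 and 8. T2339688C and A1329404G followed it with the sides turned round, with 48.2 to 49.5% and 38.5 to 41.5% alternate reads in embryos 3, 6 and 8. At A1329404G the other 9 embryos had 99.6 to 100% alternate reads, and at T2339688C at most 0.188%. G564690T followed the second track, with 37.4 to 48.2% alternate reads in embryos 3, 4, 6 and 11 and 95.9 to 100% in the rest. G2386345A carried the split, with 46.6 to 55.4% alternate reads in the first 6 and at most 0.427% in the other 6.

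C552169A, with 334 to 601 reads per embryo, was heterozygous in all 12 and had a higher reference allele in each, at 55.0 to 65.6% of reads (log2 ratio 0.58 ± 0.05 SE, edgeR adjusted p = 1.6e-08). C2673609G, in the cluster with much low mapping quality, had 56 to 646 reads, of which 73.2 to 83.6% were alternate in the first 6 and 31.6 to 36.8% in the other 6. The remaining deepest members, G2352950A and G1924556A, were reference homozygous in all 12 embryos.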

How the data were processed

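The deposited values are counts: whole numbers of reference and alternate reads per site in each of 12 whole embryos. Per the study's methods the authors used cutadapt 2.4 for trimming, STAR for mapping to gasAcu1-4 and GATK 4.1.4.1 for base quality, variant calls and its ASEReadCounter. Libraries were made from 200 ng of total RNA with 12 PCR cycles. Counts are not normalized, and reads of low mapping quality are listed apart. Mapping to a reference can favour reads that carry its own allele, which moves allele shares. Without molecular identifiers, reads are not independent molecules.

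Sites were joined by chromosome, position and alleles. SNVs needed more than 12 reads in every embryo, and other chromosomes excluded XIX, unplaced sequence and the mitochondrion. The members, lists and tests were chosen with earlier results of these data known. Heterozygous shares and reference shares were compared by two-sided exact sign-flip permutation tests over embryos, and allele counts by edgeR 4.0.16 with the Benjamini-Hochberg adjustment, checked on simulated counts. DESeq2 1.42.0 and other filters, scalings, windows and left-out embryos were tried as alternatives. SNVs were named by rule: the 10 called members with the largest ratio that went the same way in all 12 embryos and the 10 deepest, each at most 1 per 10 kb, the ends of the interval, and the members beside each change of division. Other SNVs named by position were chosen after their values were seen. R 4.3.3, Python 3.11.15, pandas 2.3.3 and scipy 1.17.1 were used.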

Additional observations from a re-analysis of the deposited data

How the results depend on the processing

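The position at which the embryos part and the share differences depended on settings. The leading division was carried by 437 and 420 members with heterozygosity limits of 5 and 20%, the only other settings tried for it. With these limits the split was carried by 35 and 1 members at 2.75 to 3 Mb, against 22. The separation began at 2.9 Mb with windows of 0.1 Mb, and at 2.5 Mb with windows of 0.5 Mb, with a limit of 20% or without a read minimum, against 2.75 Mb. A window counted as separated with either set higher, and which set was higher is not given here for these settings. Without a read minimum, a choice made after seeing the data for this value, the first SNV with the split was at 2253103. The difference in heterozygous share between the interval and other chromosomes was 1.26 percentage points (exact permutation p = 0.0508) with a limit of 20% and turned to -0.73 points with 1 SNV per 1 kb. The difference in reference share was -0.69 points (exact permutation p = 0.00586) with a limit of 5% and -1.13 points below 2.6 Mb, and turned positive, at 0.25 points without SNVs of low mapping quality and 0.0917 points as a mean over SNVs. Causes were not tested.

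With more than 30 reads in each embryo, 50 of 116 tested members (43.1%) were called for imbalance, against 41.2% of all SNVs tested. With a pooled minor share above 5%, 323 of 878 (36.8%) were called, against 22.6% of all SNVs tested. The 50 held 48 of the 79 members called without these filters, and the 323 held 28. Without the replicate block 52 of 206 were called (25.2%, against 21.0% of all SNVs tested). All 52 were among the 79, and 554345 was not called. Leaving out each embryo in turn gave 73 to 82 calls, with 68 members called in every such fit and with all embryos. Those calls were 35.4 to 39.8% of the tested members, against 31.6 to 32.9% of all SNVs tested. DESeq2 called 59 (28.6%, against 25.8% of all SNVs tested) and the exact binomial test on pooled reads 103 (50%, against 42.6%). Scaling per allele gave 73 (35.4%, against 33.3%). A filter on low mapping quality, chosen after seeing the data, gave 70 (37.2%, against 30.9%).

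Members are few after 2.5 Mb, with none in long stretches, so that the change could not be placed more finely. Many members share reads with a neighbour, and 46 members lie where reads of low mapping quality abound. A reading of the sets by sex or of the tracks by parent was not possible from the labels.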
